A study of Homo sapiens with 9 samples.

Results

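Immediate early genes are transcribed within minutes of a stimulus without new protein synthesis, and most make mRNAs that are degraded quickly. The 10 described here are a named set: the AP-1 subunits FOS, JUN, JUNB and JUND, the transcription factors EGR1 and ATF3, the response genes IER2 and IER3, and the dual-specificity phosphatases DUSP1 and DUSP2. They are 10 of the 25540 gene symbols in the deposited table. Of these, 7 reached a mean of at least 1 TPM over the 9 libraries and were tested among 10939 such genes, whereas JUN, EGR1 and IER3 did not and are given by their values. TPM is a share of each library's transcripts, corrected for gene length.

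The libraries are bulk RNA sequencing of CAL-1, a human line established from a blastic plasmacytoid dendritic cell neoplasm, which is a leukemia related to plasmacytoid dendritic cells. Groups of 3 libraries each were compared: a control labelled NTC, and cells with CRISPR interference against KHSRP labelled KHSRPi#1 and KHSRPi#2. CRISPR interference lowers transcription of a gene by directing an inactive Cas9 to its promoter. Every library has the same cell line, the genotype label WT and the same batch label. The labels name no stimulus, and do not say what the numbers 1 and 2 stand for, whether the cells are clones, or whether replicates came from separate cultures. P-values therefore reflect only how these libraries vary, and that variation may be technical. In bulk RNA, less RNA per cell cannot be told apart from fewer cells expressing a gene.

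Many of these mRNAs carry AU-rich elements in the 3' UTR, stretches built on the pentamer ATTTA (written in DNA letters), which recruit proteins that shorten the poly(A) tail and speed decay. KHSRP is among the proteins known to bind such elements and bring in the decay machinery. In hematopoietic cells FOS and JUN proteins pair into the AP-1 transcription factor downstream of MAP kinases, and DUSP1 and DUSP2 dephosphorylate those kinases.

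KHSRP was 237 ± 19.1 TPM (SD, n = 3) in NTC, 35.1 TPM on average in KHSRPi#1 and 35.3 TPM in KHSRPi#2, so every knockdown library matched its label. Symbols above 0 numbered 13966 to 14462 per library; read depth is unknown, and relative depth estimated from low values ran from 0.98 to 1.83 times NTC replicate 1. The summed markers of plasmacytoid dendritic cells were 3460 to 4115 TPM, although IL3RA was listed at 0 in every library. Summed T cell markers reached at most 0.222 TPM, erythroid ones 0.164, fibroblast ones 0.586, B cell ones 1.84 and epithelial ones 2.40. The monocyte sum, nearly all LYZ, was 36.9 to 42.0 TPM in the replicate 3 libraries and 59.4 to 91.0 TPM in the others. The replicate 3 libraries stood apart from replicates 1 and 2 in all 3 groups, with 30.3% of tested genes different in a fit that kept the groups; results are therefore given with and without a term for these libraries.

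The AU-rich stretches are shown first because they are the feature for which this gene set is known. Each window is 30 bases of 3' UTR exon sequence on the hg38 build (GENCODE 29), read 5' to 3' on the strand of the gene, with complete ATTTA copies in capitals. The FOS window is chr14:75282051-75282080 on the plus strand and the JUNB window chr19:12793048-12793077 on the plus strand. The IER3 window is chr6:30743651-30743680 and the DUSP1 window chr5:172768632-172768661, both on the minus strand. In FOS and DUSP1 the copies share a base and the stretch holds the nonamer TTATTTATT, a motif used to mark strong elements, while JUNB has a single copy in its window.
FOS: gttttattgtgtttttaATTTATTTAttaa
DUSP1: ttATTTATTTAacttcacccgagttcctct
IER3: tcctaattaatATTTAtatgtATTTAtgta
JUNB: atattgaatataatatatttgtgtATTTAa

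ATTTA was present in the 3' UTR of 9 of the 10 genes, against 70.5% of tested genes with a transcript model and 69.6% of the 2537 whose 3' UTR was in the length range of the 10 genes. Only IER2, whose 3' UTR model is 1050 bases, had none. IER3 had 6 copies, FOS 5, DUSP1 4, JUN, ATF3 and DUSP2 3 each, JUNB 2, and JUND and EGR1 1 each. The heptamer TATTTAT was found in 7 of 10 genes (32.9% of tested genes), and the nonamer TTATTTATT in FOS and DUSP1 alone among the 10 (8.64% of tested genes). Copies were counted on the transcribed strand, overlaps included, and the 3 motifs contain one another. The median density was 3.23 copies of ATTTA per kb of 3' UTR, against 1.68 over tested genes. The transcripts also had few exons: all 10 had at most 4, as did 18.1% of tested genes. The median transcript was 2026 bases against 3163, although that of JUN was 3540.

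Promoters are shown because several of these genes are known targets of serum response factor or of CREB. RefSeq promoter windows (GRCh38.p14, 250 bases before to 50 after the start) were found for all 10 genes and searched on both strands beside 35116 promoters in all. The CArG box, the site type of serum response factor, was matched within this window in EGR1 alone, and in 1.29% of all promoters. EGR1 had a pair of them, at chr5:138465364-138465393 and chr5:138465386-138465415 on the plus strand, beginning 105 and 83 bases before the start, shown in capitals.
EGR1 first box: gccggtcctgCCATATTAGGgcttcctgct
EGR1 second box: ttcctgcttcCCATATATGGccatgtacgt

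The full cAMP response element TGACGTCA was matched in JUND and DUSP1, and in 1.85% of all promoters. The windows are chr19:18281804-18281833 for JUND and chr5:172771302-172771331 for DUSP1, both on the minus strand, with the element in capitals 200 and 125 bases before the start.
JUND: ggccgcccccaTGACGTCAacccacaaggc
DUSP1: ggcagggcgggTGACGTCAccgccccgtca

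The AP-1 site TGANTCA was matched in 0 of the 10 windows (7.71% of all promoters), the TATA box letters TATAAA in FOS, JUNB, ATF3 and DUSP1 (11.5%), and the ETS-type letters CCGGAAG in IER2 alone (10.3%). The shorter letters TGACGT, part of the cAMP response element, were matched in FOS, JUND, EGR1 and DUSP1 (7.98%). A match describes these letters in this window and says nothing of a bound factor. Sites more than 250 bases before the start were not searched, so a gene without a match may still have the site.

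In the control cells the 10 genes ranged widely in level. JUND was highest at 38.0 ± 3.09 TPM (SD, n = 3), followed by JUNB at 23.9 ± 2.00 and IER2 at 23.1 ± 2.73, whose ranges overlapped. DUSP2 (8.37 ± 1.02 TPM) and ATF3 (8.27 ± 0.498 TPM) overlapped next, and below them DUSP1 (5.34 ± 0.581 TPM) and FOS (4.09 ± 2.05 TPM). JUN (0.497 ± 0.198 TPM) and EGR1 (0.497 ± 0.0893 TPM) overlapped in turn, and IER3 was lowest at 0.328 ± 0.0212 TPM. All other neighbours in this order had ranges that did not overlap in NTC, although over all 9 libraries ATF3 overlapped with DUSP1 and EGR1 with IER3.

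**Figure D1:**
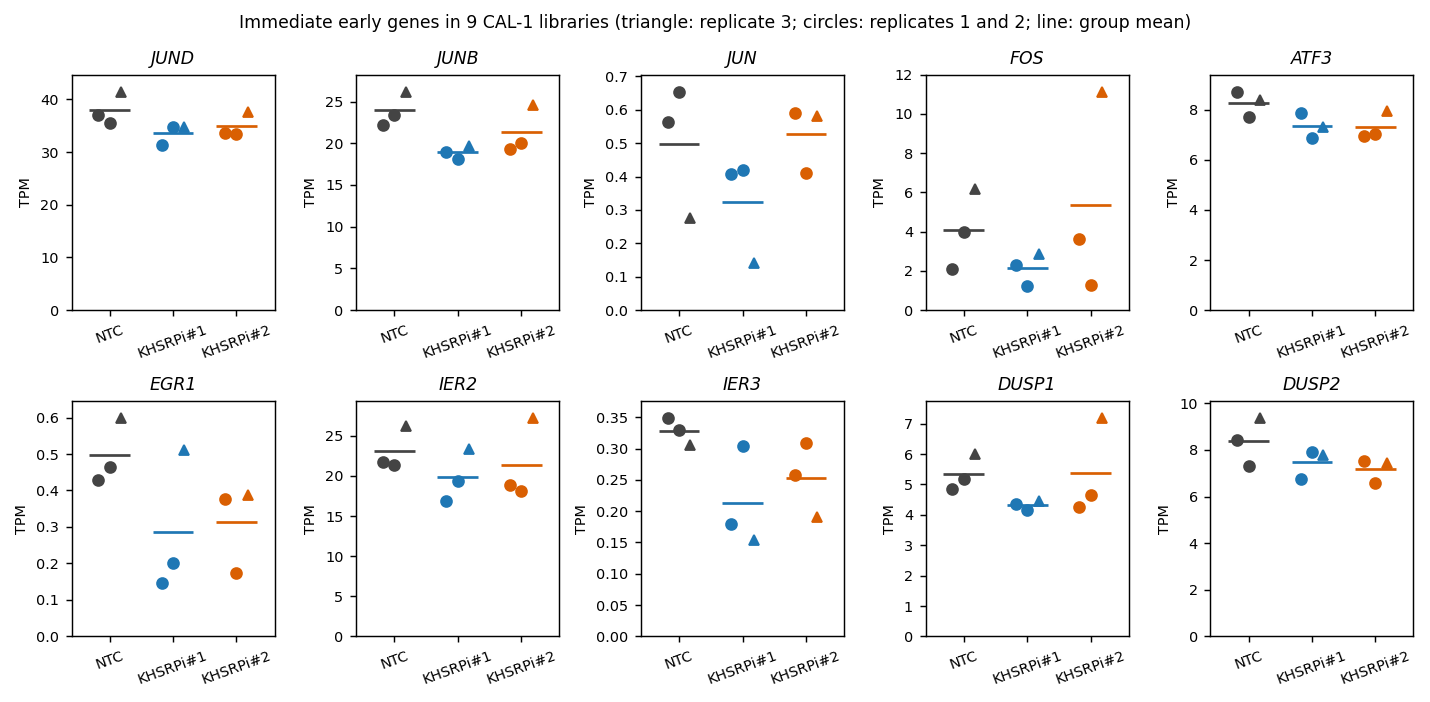
TPM of each of the 10 genes in each of the 9 libraries, on a linear axis from 0, with the NTC, KHSRPi#1 and KHSRPi#2 groups side by side. Each symbol is a library (triangles are replicate 3) and each line a group mean; the triangle is the highest of its group in all 3 groups for FOS, JUNB, JUND, EGR1, IER2 and DUSP1.

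With KHSRP knocked down, the tested immediate early genes lay slightly below the controls, and none passed the test. All 7 log2 fold changes for the mean of both knockdown groups against NTC were negative, from -0.30 for FOS to -0.13 for DUSP1, with a median of -0.17. Without NTC replicate 3, in the fit with no term for replicate 3, the median was -0.08 and none was called. FOS was at -0.01, DUSP1 at -0.06, IER2 at -0.07, JUND at -0.08 and DUSP2 at -0.09. That fit set both knockdown replicate 3 libraries against NTC replicates 1 and 2 only, so it was not balanced for replicate 3. Replicates 1 and 2 alone gave FOS -0.41, DUSP1 -0.17, IER2 -0.22, JUND -0.12 and DUSP2 -0.12, none called. In the fit of all 9 libraries the median over all tested genes was 0.02 and 41.7% were negative. The 7 genes varied together over the 9 libraries, so their signs are not independent. All 21 pairs had a positive Pearson coefficient (median 0.71). After the means of replicate 3 and of replicates 1 and 2 were each subtracted, 19 did (median 0.54). In limma, 0 of 7 had an adjusted p under 0.05, where 0.0823% of tested genes were called, and 1 of 7 (JUNB) had an unadjusted p under 0.05, as did 7.93% of tested genes. With a term for replicate 3 the unadjusted p was under 0.05 for 5 of 7 (JUNB, JUND, IER2, ATF3 and DUSP2), as for 17.5% of tested genes. No gene of the 10 had all 6 knockdown libraries below all 3 NTC libraries (1.57% of tested genes did). Summed plasmacytoid dendritic cell markers were 3460 to 3961 TPM in NTC, 3722 to 4094 TPM in KHSRPi#1 and 3603 to 4115 TPM in KHSRPi#2, sums dominated by IRF8 and TCL1A. All 7 tested markers of this list had positive log2 fold changes (median 0.10) and 0 were called. With the term for replicate 3, limma called 3 of them higher: GZMB, the protease granzyme B, from 41.2 ± 10.6 TPM (SD, n = 3) to 83.5 ± 21.6 TPM (SD, n = 6; adjusted p = 8.56e-08), the surface lectin CLEC4C by 0.36 (adjusted p = 0.0050) and TCL1A by 0.17 (adjusted p = 0.0275). Their part in the result was not tested.

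Among the AP-1 subunits, JUNB, a JUN relative with weaker activating capacity, had the clearest difference. JUNB was 22.2, 23.4 and 26.1 TPM in NTC replicates 1, 2 and 3, 19.0, 18.2 and 19.7 TPM in KHSRPi#1, and 19.3, 20.1 and 24.5 TPM in KHSRPi#2. All 3 KHSRPi#1 libraries lay below all 3 controls, whereas KHSRPi#2 replicate 3 lay within the control range. The knockdown mean was 20.1 ± 2.26 TPM (SD, n = 6), against 23.9 ± 2.00 TPM in the controls. The log2 fold change was -0.24 (95% interval -0.42 to -0.06; limma adjusted p = 0.516; unadjusted p = 0.0135), and an exact two-sided permutation of TPM gave p = 0.0714, where the smallest possible is 0.0238. With a term for replicate 3 the estimate stayed at -0.24 with an SE of 0.05, and JUNB fell by the test (limma adjusted p = 0.0411), in a fit that called 1.76% of genes and 0.485% as lower. This call lay near the threshold. It was lost in 8 of the 9 fits with that term that each left out 1 library, all but the one without KHSRPi#2 replicate 3. In these fits the estimate ran from -0.27 to -0.22 and limma's adjusted p from 0.0449 to 0.191. Calls over all genes, 139 higher and 53 lower with all libraries, changed too. They were 20 and 13 without NTC replicate 3, and 153 and 49 without NTC replicate 2. With the term and no filter on low values the JUNB call was also lost (limma adjusted p = 0.106), where 17 genes were called higher and 10 lower.

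JUND, the JUN relative that is usually expressed without a stimulus, was 37.0, 35.4 and 41.4 TPM in NTC, 31.3, 34.8 and 34.8 TPM in KHSRPi#1, and 33.7, 33.5 and 37.7 TPM in KHSRPi#2. The KHSRPi#1 libraries lay below all controls and KHSRPi#2 replicate 3 did not. The knockdown mean was 90.3% of the control mean, a log2 fold change of -0.14 (95% interval -0.29 to 0.01; limma adjusted p = 0.636, and 0.144 with the term for replicate 3). FOS, the partner that JUN proteins need for their most stable dimers, varied far more. It was 2.09, 4.00 and 6.18 TPM in NTC, 2.29, 1.25 and 2.85 TPM in KHSRPi#1, and 3.62, 1.27 and 11.1 TPM in KHSRPi#2. The groups overlapped, and KHSRPi#2 held both one of the lowest libraries and the highest. The log2 fold change of -0.30 had a 95% interval from -1.29 to 0.70 (limma adjusted p = 0.905), so changes of FOS in either direction remain within the error. Leaving out 1 library moved the FOS estimate to -0.61 without NTC replicate 1, -0.61 without KHSRPi#2 replicate 3, -0.19 without KHSRPi#1 replicate 2 and -0.01 without KHSRPi#2 replicate 2, and it was -0.12 with a pseudocount of 5, none called.

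JUN itself, the founding member of the family, was 0.563, 0.654 and 0.275 TPM in NTC, 0.409, 0.421 and 0.141 TPM in KHSRPi#1, and 0.591, 0.411 and 0.581 TPM in KHSRPi#2. The groups overlapped, and the exact two-sided permutation test gave p = 0.595. JUN was thus the least abundant of the JUN genes in every library, at a level where no counting error can be given.

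The other transcription factors also overlapped with the controls. ATF3, a stress-induced factor that binds as a dimer to cAMP response elements and often represses, was 8.71, 7.73 and 8.38 TPM in NTC, 7.86, 6.88 and 7.30 TPM in KHSRPi#1, and 6.96, 7.04 and 7.94 TPM in KHSRPi#2. KHSRPi#1 replicate 1 and KHSRPi#2 replicate 3 lay above the lowest control and the other 4 knockdown libraries below it. The log2 fold change was -0.16 (95% interval -0.31 to 0.00; limma adjusted p = 0.634; exact permutation p = 0.0714). EGR1, a zinc finger factor induced by growth signals, was 0.429, 0.464 and 0.598 TPM in NTC, 0.145, 0.201 and 0.512 TPM in KHSRPi#1, and 0.378, 0.175 and 0.387 TPM in KHSRPi#2. Only KHSRPi#1 replicate 3 reached into the control range. The knockdown mean was 60.3% of the control mean, the lowest ratio of the 10 genes, with an exact permutation p of 0.0952; without the filter on low values limma gave EGR1 a log2 fold change of -0.21 (adjusted p = 0.704).

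IER2, a nuclear protein induced by growth factors, was 21.7, 21.3 and 26.2 TPM in NTC, 16.9, 19.4 and 23.4 TPM in KHSRPi#1, and 18.9, 18.2 and 27.2 TPM in KHSRPi#2. Both knockdown replicate 3 libraries lay within or above the control range, and the other 4 lay below it. The log2 fold change of IER2, the gene without an ATTTA, was -0.17 (95% interval -0.47 to 0.14; limma adjusted p = 0.806), the median of the 7; it was -0.25 without KHSRPi#2 replicate 3. IER3, a regulator of stress-induced cell death, was 0.348, 0.329 and 0.306 TPM in NTC, 0.179, 0.305 and 0.155 TPM in KHSRPi#1, and 0.257, 0.309 and 0.190 TPM in KHSRPi#2. Of its 6 knockdown libraries, 5 lay below every control. The exact permutation p of IER3, 0.0476, was the smallest of the 10 genes and is not adjusted for them; without the filter limma gave an adjusted p of 0.651.

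DUSP1, a nuclear phosphatase of p38, JNK and ERK, was 4.85, 5.19 and 5.99 TPM in NTC, 4.37, 4.17 and 4.45 TPM in KHSRPi#1, and 4.27, 4.67 and 7.18 TPM in KHSRPi#2. Of the knockdown libraries 5 lay below every control, and KHSRPi#2 replicate 3 was the highest library of all. The log2 fold change was -0.13 (95% interval -0.42 to 0.15; limma adjusted p = 0.841). It was -0.23 without KHSRPi#2 replicate 3, -0.07 without KHSRPi#2 replicate 1 and -0.08 with a pseudocount of 5. DUSP2, a related nuclear phosphatase prominent in immune cells, was 8.44, 7.31 and 9.36 TPM in NTC, 6.75, 7.90 and 7.78 TPM in KHSRPi#1, and 7.54, 6.56 and 7.42 TPM in KHSRPi#2. Its groups overlapped through NTC replicate 2, and the log2 fold change was -0.17 (95% interval -0.36 to 0.03; limma adjusted p = 0.679).

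No difference between the knockdown groups passed the test. FOS had a log2 fold change of -0.65 in KHSRPi#1 and 0.06 in KHSRPi#2, with a difference between the groups of 0.72 (95% interval -0.43 to 1.86). JUNB was -0.32 and -0.17 (difference 0.15, interval -0.06 to 0.36) and DUSP1 -0.25 and -0.02 (difference 0.23, interval -0.10 to 0.56). JUND, IER2, ATF3 and DUSP2 differed by -0.05 to 0.09 between the groups. In limma 0 of 7 differences passed, where 0 of 10939 tested genes passed (0.0%); 0 of 7 had an unadjusted p under 0.05, as 1.05% of tested genes had. Against NTC, 0 of 7 passed in either group, with a background of 0.0548% in each. An unadjusted p under 0.05 was found for 1 of 7 in KHSRPi#1 (JUNB; 5.24% of tested genes) and 0 of 7 in KHSRPi#2 (6.93%). With the term for replicate 3 JUNB passed in KHSRPi#1 (adjusted p = 0.0372; background 0.676%) and not in KHSRPi#2 (adjusted p = 0.217; background 0.804%), and the difference between the groups did not pass (adjusted p = 0.977). The JUNB call in KHSRPi#1 held in 2 of the 9 fits with the term that each left out 1 library, those without KHSRPi#2 replicate 1 or 2, and was lost with the term after quantile normalization or without a filter. With the term the interval of the difference between the groups was 0.03 to 1.40 for FOS, 0.02 to 0.28 for JUNB and 0.0035 to 0.46 for DUSP1. The unadjusted p was under 0.05 for these 3 of 7 genes (3.1% of tested genes), and 0 of 7 passed (adjusted p = 0.977 for each of the 3). All KHSRPi#1 libraries lay below all controls for JUNB, JUND, DUSP1 and IER3, which is 3 of the 7 tested genes against 4.3% of tested genes. All KHSRPi#2 libraries did so for EGR1 alone, 0 of 7 against 3.47%.

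**Figure D2:**
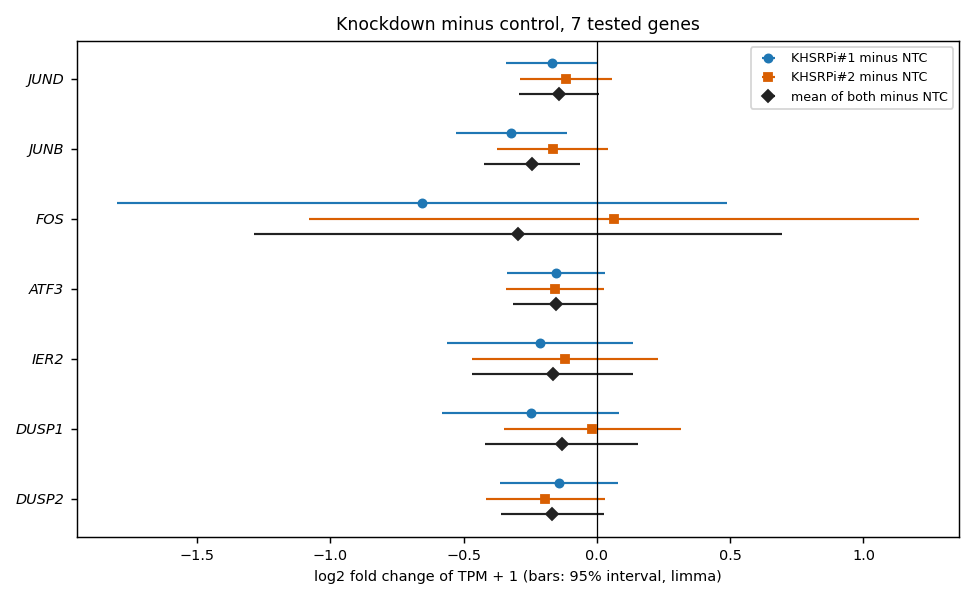
Log2 fold change of TPM + 1 against NTC for the 7 tested genes, with points for KHSRPi#1, KHSRPi#2 and the mean of both and bars for limma's 95% interval. All 7 means lie left of 0, JUNB alone has an interval for the mean that excludes 0, and FOS has the widest bars.

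Within replicates 1 and 2, all 4 knockdown libraries lay below both controls for JUNB, JUND, IER2 and DUSP1, 4 of the 7 tested genes, against 8.96% of tested genes; EGR1 and IER3 did so too. A limma fit of these 6 libraries alone gave JUNB a log2 fold change of -0.24 (adjusted p = 0.237), IER2 -0.22 (0.351), JUND -0.12 (0.580), DUSP1 -0.17 (0.580), ATF3 -0.17 (0.568), DUSP2 -0.12 (0.716) and FOS -0.41 (0.654), none past the threshold. Within replicate 3, both knockdown libraries lay below the control for JUNB, JUND, ATF3 and DUSP2, 4 of 7 against 29.0% of tested genes, and for EGR1 and IER3. JUNB, JUND, EGR1 and IER3 had this order in both subsets. The share of all tested genes with this order in both was not computed, and EGR1 and IER3 were not among the tested genes.

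More of the immediate early genes passed the test between the replicate 3 libraries and the rest than between knockdown and control. The same held over all tested genes: 30.3% passed for replicate 3, against 0.0823% for knockdown, or 1.76% with the term. In a fit that kept the 3 groups, 5 of 7 rose in replicate 3, against 18.7% of tested genes called higher. FOS was 6.71 TPM on average in replicate 3 and 2.42 TPM in replicates 1 and 2, a log2 difference of 1.09 (SE 0.27; limma adjusted p = 0.0104). Without KHSRPi#2 replicate 3, the FOS difference was 0.69 (adjusted p = 0.103). IER2 was 25.6 against 19.4 TPM, a log2 difference of 0.39 (SE 0.06; adjusted p = 0.0007), and was the only one of the 10 with all 3 replicate 3 libraries above all 6 others, as 16.5% of tested genes were. IER2 passed in all 16 alternatives run.

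DUSP1 (0.28, SE 0.09; adjusted p = 0.0345), JUNB (0.19, SE 0.05; adjusted p = 0.0159) and JUND (0.14, SE 0.05; adjusted p = 0.0348) were the other 3 that rose in limma. FOS passed in 12 of the 15 alternatives that tested it, JUNB in 13 of 16, DUSP1 in 8 and JUND in 6. FOS was lost with no filter (adjusted p = 0.0754), with robust eBayes (adjusted p = 0.0934) and without KHSRPi#2 replicate 3, and without KHSRPi#2 replicate 3 IER2 alone passed, so the count fell from 5 to 1. Without NTC replicate 3 the count was 2, and without KHSRPi#2 replicate 1 or replicate 2 it was 3. Calls over all genes changed in these fits too. From 2045 higher, they went to 1289 without KHSRPi#2 replicate 3 and 1142 without NTC replicate 3. They were 2127 without KHSRPi#2 replicate 1 and 1798 without KHSRPi#2 replicate 2. After median-ratio rescaling of the libraries the count was 3, and over all genes the calls moved from 2045 higher and 1269 lower to 1792 and 1945. ATF3 (0.06, adjusted p = 0.526) and DUSP2 (0.12, adjusted p = 0.224) did not pass; ATF3 was at -0.00 after quantile normalization.

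**Figure D3:**
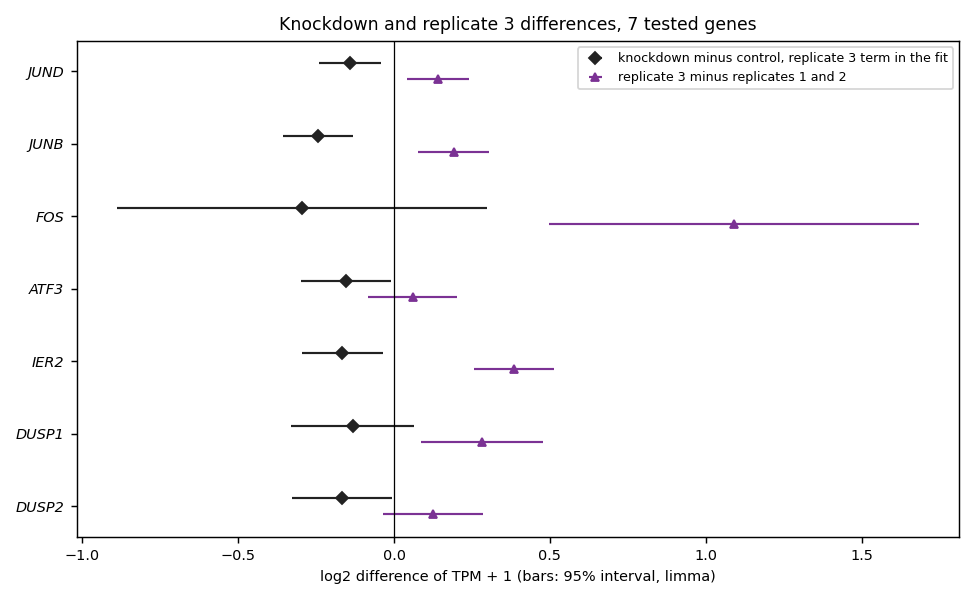
Log2 differences of TPM + 1 for the 7 tested genes from 1 limma fit with terms for group and for replicate 3; diamonds are the mean of both knockdown groups minus NTC, triangles replicate 3 minus replicates 1 and 2, bars 95% intervals. All diamonds lie left of 0 and all triangles right of it, with FOS at 1.09 and IER2 at 0.39 farthest to the right.

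Replicate 3 was the highest library of its group in all 3 groups for FOS, JUNB, JUND, IER2 and DUSP1, 5 of 7 tested genes against 26.0%, and for EGR1 (0.499 against 0.299 TPM on average). JUN and IER3 had lower means in replicate 3, 0.332 against 0.508 TPM and 0.217 against 0.288 TPM. Markers moved with this contrast. Of the 7 tested plasmacytoid dendritic cell markers 5 passed (median -0.34), against 30.3% of tested genes. GZMB (-0.75, 46.9 against 80.6 TPM), NRP1 (-0.45), SPIB (-0.38) and CLEC4C (-0.34) were lower in replicate 3, and IRF8 (0.24) higher. TCF4 and TCL1A did not pass. The summed markers, dominated by IRF8 and TCL1A, averaged 4057 TPM in replicate 3 and 3675 TPM in the others. The monocyte gene LYZ was lower (-0.92; 38.4 against 73.9 TPM) and the B cell gene CD79A higher (0.42; 1.61 against 0.963 TPM). Their part in the result was not tested. Spread within groups differed widely among the genes: FOS had an SD of 0.82 on the log2 scale, above 99.8% of tested genes, IER2 0.24 and DUSP1 0.21, whereas JUND (0.10) and ATF3 (0.09) lay below the median of 0.104.

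The wider programme was described by lists of related genes, chosen with earlier results of these data known. The lists overlap: SRF is in the immediate early and MAP kinase lists, and MAFF, which was not tested, in the immediate early and AP-1 lists. Of 30 other immediate early genes, 16 were tested, 10 were negative for knockdown against NTC and 0 were called; the median was -0.05, and the most abundant, MCL1, an anti-apoptotic BCL2 relative, was at -0.00. Of 12 other dual-specificity phosphatases, 10 were tested, 7 were negative and 0 were called (median -0.10), with the most abundant, the ERK phosphatase DUSP5, at -0.08. Of 28 MAP kinase cascade members and regulators of the serum response, 27 were tested, 16 were negative and 0 were called (median -0.04), with the most abundant, the ERK-activating kinase MAP2K2, at -0.11. Of 21 AP-1 and ATF partners, 13 were tested and 5 were negative, and of 10 heat shock genes, all tested, 4 were negative; 0 were called in either list, with medians of 0.02 and 0.01. The most abundant were ATF4, a factor of the integrated stress response, at 0.06, and the chaperone HSPA8 at 0.01. An unadjusted p under 0.05, as 7.93% of tested genes had, was found for 2 of 16 other immediate early genes, 4 of 10 phosphatases, 1 of 27 genes of the MAP kinase list, 1 of 13 partners and 0 of 10 heat shock genes.

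With the term for replicate 3, DUSP6, the cytoplasmic ERK phosphatase, fell with knockdown by 0.33 on the log2 scale (limma adjusted p = 0.0082), from 21.0 ± 4.82 TPM (SD, n = 3) to 16.3 ± 2.40 TPM (SD, n = 6). ATF5, a factor of the stress response, rose by 0.17 (adjusted p = 0.0456), from 122 ± 14.6 to 137 ± 10.2 TPM. These were the only calls for knockdown in the 5 lists in that fit, and both were lost with the term and no filter, as was ATF5 with the term and either scaling. Of the 9 fits with that term that each left out 1 library, DUSP6 was called in 8, all but the one without NTC replicate 3 (adjusted p = 0.0996), and ATF5 in 1, the one without NTC replicate 1 (adjusted p over the 9 from 0.0370 to 0.283).

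In replicate 3, 4 of the 5 lists held calls in both directions, whereas 5 of the 7 tested genes rose and 0 fell. Of all tested genes 18.7% were called higher and 11.6% lower, 30.3% together. Of the 16 other immediate early genes 3 rose and 5 fell: KLF4, a zinc finger factor, had a log2 difference of -0.61, TNFAIP3, an inhibitor of NF-kB signalling, 0.41 and PPP1R15A, which restores translation after stress, -0.38. This count of 8 was 5 without NTC replicate 3 and 5 without KHSRPi#1 replicate 3. Among the 10 phosphatases DUSP6 (0.41) and DUSP16 (0.33) rose and DUSP5 (-0.32) fell. Of the 27 in the MAP kinase list 6 rose and 0 fell, a share near that of all genes called higher. Those 6 included MAP2K1 (0.26), the ERK kinase MAPK3 (0.30) and MAP2K6 (0.41). They also included SRF, which is counted among the other immediate early genes too. The 13 AP-1 and ATF partners had 4 higher and 3 lower, with ATF5 at -0.23, MAFG at 0.22 and CEBPB at 0.22; the 7 calls were 2 without NTC replicate 3, 4 without KHSRPi#1 replicate 3 and 3 without KHSRPi#2 replicate 3. Of the 10 heat shock genes HSPB1 rose by 0.56 and 4 fell, among them HSPA8 (-0.28) and HSP90AA1 (-0.26). With all libraries, 2045 of all tested genes were called higher and 1269 lower. These were 1142 and 660 without NTC replicate 3, 1112 and 858 without KHSRPi#1 replicate 3, and 1289 and 681 without KHSRPi#2 replicate 3.

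**Figure D4:**
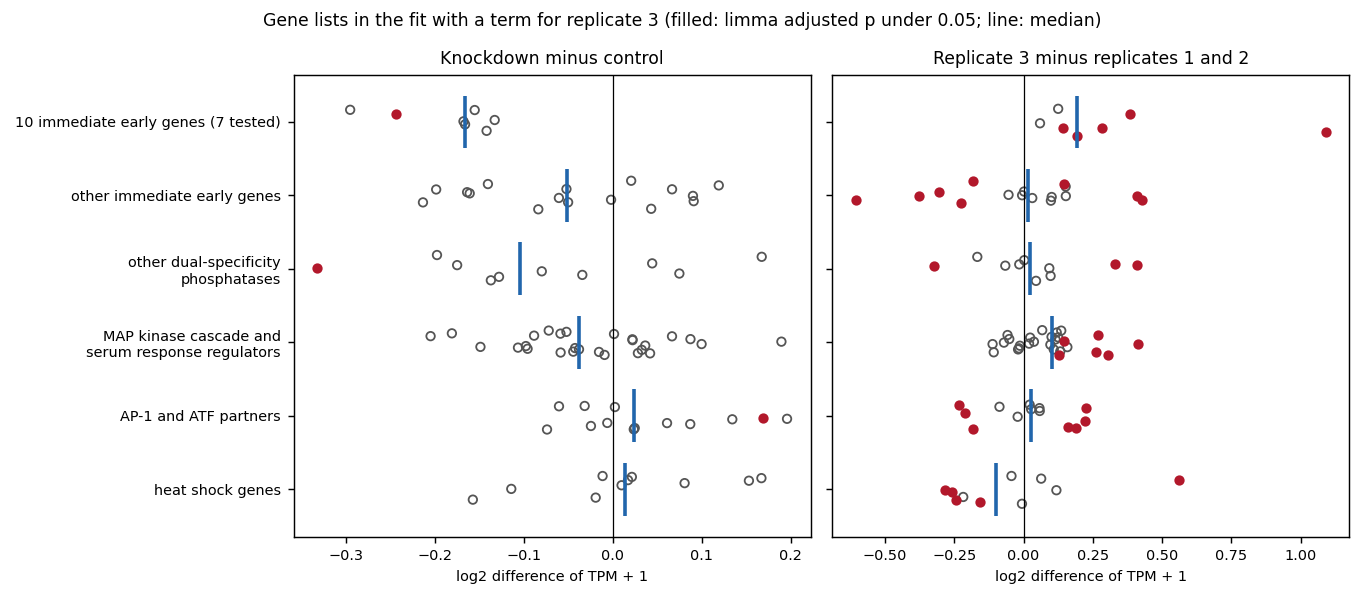
Log2 differences of TPM + 1 of every tested gene in 6 lists, for knockdown minus control (left) and replicate 3 minus replicates 1 and 2 (right), from the limma fit with a term for replicate 3; filled points have an adjusted p under 0.05 and vertical bars are list medians. The 10 immediate early genes (7 tested) have the lowest median on the left, -0.17, with JUNB filled, and the highest on the right, 0.19, with 5 filled.

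Genes whose pattern over the 9 libraries was most like the mean standardised level of the 7 tested genes were sought among 8993 genes with a mean of at least 5 TPM. The highest Pearson coefficients were for IGFBP4 (0.962), KCNMB2 (0.946), LOC102606465 (0.946), TNFRSF10B (0.945) and PRAG1 (0.944). After the means of replicate 3 and of replicates 1 and 2 were each subtracted, they were MMP14 (0.960), KCNMB2 (0.949), MAP3K14 (0.943), SLC25A39 (0.939) and MRPS2 (0.929). IGFBP4, a secreted binder of insulin-like growth factors, was 8.23 TPM in NTC and 6.66 TPM in the knockdown libraries, and 8.26 TPM in replicate 3 against 6.65 TPM in the others. These 9 points share the separation of replicate 3 and the same libraries, and the coefficients are a description only.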

How the data were processed

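Per the labels' protocols, total RNA of 9 CAL-1 libraries was extracted with a column kit and libraries were made with a Roche Kapa kit. The deposited table, made by the authors, holds TPM by gene symbol, with each column summing to 1000000; the build is hg38, per the submitters' processing notes. The name of the deposited table mentions STAR, a read aligner; its version, the counter, annotation and strand setting were not given in the sources used here. Groups and replicate numbers came from the sample titles.

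The 10 genes, the related lists, the marker lists and the tests were chosen with earlier results of these data known. Genes averaging at least 1 TPM (10939) were tested on log2(TPM + 1) in R 4.3.3 by limma 3.58.1 (two-sided, eBayes with intensity trend) in 1 fit of all 3 groups, p-values adjusted by Benjamini-Hochberg over all tested genes. Fold changes on this scale understate those of low genes. Single genes were compared by exact permutation of TPM over 84 divisions into 6 and 3 libraries. In each related list the text names up to 3 called genes with the smallest adjusted p, or the most abundant. Transcript models (GENCODE 29) were matched for 89.3% of tested genes, and promoters came from RefSeq (GRCh38.p14). No 2 libraries were identical. The method was checked on simulated data. Python 3.11.15, pandas 2.3.3, numpy 2.4.6, scipy 1.17.1 and matplotlib 3.10.9 were used. Alternatives were a pseudocount of 0.1 or of 5, a filter of 5 or none, median-ratio and quantile scaling, a replicate block, a replicate 3 term, robust eBayes, replicates 1 and 2 alone, and leaving out each library. The same alternatives for the related lists, and the term combined with each pseudocount, filter or robust eBayes, were added after seeing the data.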

Additional observations from a re-analysis of the deposited data

Results flagged for a closer look

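Over the 6 knockdown libraries, KHSRPi#2 replicate 3 stood apart as the highest by Dixon's test at the 95% level for 3 of the 10 genes. FOS was 11.1 TPM there, with the next highest library at 3.62 TPM. JUNB was 24.5 TPM there, with the next at 20.1 TPM. DUSP1 was 7.18 TPM there, with the next at 4.67 TPM. A chance rate of about 1 in 20 holds for values from like libraries. The replicate 3 libraries differed from the others in 30.3% of tested genes, so that rate does not apply here. The share of all tested genes marked in this way was not computed, and these genes share the library.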

How the results depend on the processing

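The log2 fold changes for knockdown against NTC were negative in every alternative that tested the gene (35 for each gene except FOS with 33, since FOS did not pass a filter of 5 TPM); FOS without NTC replicate 3 was nearest 0 at -0.0053. Their median ran from -0.23 to -0.08, the value nearest 0 being that without NTC replicate 3 and without the term. In that fit both knockdown replicate 3 libraries were set against NTC replicates 1 and 2 only. The count of called genes among the 7, 0 without a term for replicate 3, was 1 with it, alone or together with median-ratio or quantile scaling, either pseudocount, the filter of 5 or robust eBayes, 0 with it and no filter, and 0 to 1 when each library was also left out. For KHSRPi#1 it was 1 with the term, 1 with the term and median-ratio scaling, either pseudocount, the filter of 5 or robust eBayes, 0 with the term and quantile scaling or no filter, and 0 to 1 on leaving out a library. JUNB ran from -0.29 to -0.18 over 35 alternatives and was called in 8 of them (adjusted p 0.0293 to 0.835). For replicate 3 against the rest, the count of 5 was 3 after median-ratio scaling, 2 after quantile normalization, 2 without a filter and 1 to 5 on leaving out a library; ATF3 reversed to -0.0032 after quantile normalization. For knockdown against NTC, the fit with the term called 139 genes higher and 53 lower over all genes, and 131 and 112 after median-ratio scaling. The cause was not tested.

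The other lists had 0 calls for knockdown against NTC. The other immediate early genes had 1 with the replicate block and 1 with the term and either scaling; the other phosphatases had 1 with the block, with the term and with the term and either scaling, either pseudocount, the filter of 5 or robust eBayes; the MAP kinase list had 1 with the term and either scaling; the AP-1 and ATF partners had 1 with the term, alone or with either pseudocount, the filter of 5 or robust eBayes; the heat shock genes had 1 with the term and the filter of 5 or robust eBayes. On leaving out a library with the term, the phosphatases, the MAP kinase list, the AP-1 and ATF partners and the heat shock genes had 0 to 1. For replicate 3, leaving out a library gave 5 to 8 calls among the other immediate early genes (8 with all libraries) and 2 to 7 among the AP-1 and ATF partners (7 with all).

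Replicate numbers are in the labels, but nothing there says that they pair libraries. Of 9 correlations between deviations of same-numbered libraries, 8 exceeded 0.1; the exception was number 1 of NTC with KHSRPi#2 (0.0398). All 3 exceeded 0.1 for NTC with KHSRPi#1 (0.159, 0.228 and 0.622) and for KHSRPi#1 with KHSRPi#2 (0.324, 0.208 and 0.628). Averaged over the other groups, 3 of 9 libraries, those of replicate 3, correlated best with their own number. The replicate block raised the calls over all genes for the mean of both knockdown groups from 9 to 152 and called 0 of the 7 genes for that mean, for either knockdown group and for the difference between them. Depth in reads is unknown, so the precision of JUN, EGR1 and IER3, all under 1 TPM, rests on the replicates alone.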
